A study of Mus musculus with 367 samples.

Results

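Integrins are heterodimers of one alpha and one beta subunit that tie the cytoskeleton of a cell to the matrix around it or to ligands on other cells. The alpha subunit largely sets the ligand: Itga1 and Itga11 pair with Itgb1 as collagen receptors, Itga7 pairs with Itgb1 as a laminin receptor, and Itga5, Itga8 and Itgav belong to receptors for the RGD motif of fibronectin, vitronectin and related proteins. Itgam and Itgb2 form the leukocyte integrin known as Mac-1 or complement receptor 3. In a healing wound, contractile fibroblasts use such receptors to pull on the new matrix, pericytes and smooth muscle cells use them to hold the vessel basement membrane, and macrophages use Mac-1 to adhere and to take up opsonized material.

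The expression of 10 integrin subunit genes (Itga1, Itga5, Itga7, Itga8, Itga11, Itgav, Itgb1, Itgb5, Itgam and Itgb2), out of 50600 genes in the deposited matrices, was followed in single cells of mouse wounds. The genes were listed by name, with their identifiers mapped to symbols through GENCODE, and all 10 were found. Square excisional wounds of 1.5 cm a side were made on the backs of 3 to 8 week old mice of mixed background that carried both Sm22-Cre and tdTomato (the age is that of the labels, and the study's methods give a narrower range with a later start), and viable tdTomato-high cells were sorted at post-wounding days (PWD) 12, 15 and 21. Cre stood under the promoter of Tagln (SM22) in all samples, so that tdTomato marked cells with present or past activity of a promoter known from contractile cells, and no sample without Sm22-Cre or from unwounded skin was analysed here. Cells were caught singly on C1 microfluidic chips and their full-length cDNA was sequenced. The 367 cells came from 7 captures, of which 3 were of day 12 and 2 each of the later days. Each time point pooled the wounds of 2 to 3 animals, and the labels do not say whether captures came from different mice, so that p-values measure the spread between captures, which may be technical.

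Of the 367 cells, 292 passed limits on estimated depth, gene number and mitochondrial share. They were sorted into kinds by 3 genes. Matrix cells had at least 1000 FPKM of Col1a1, under 100 of Rgs5 and under 50 of Tyrobp, mural cells at least 500 of Rgs5 and under 50 of Tyrobp, and myeloid cells at least 500 of Tyrobp. This gave 198 matrix, 57 mural and 26 myeloid cells, while 11 cells fell in no kind. FPKM are fragments scaled to the length of the transcript and to the depth of the cell, so levels of different genes can be compared. The median estimated depth was 1459379 fragments in matrix cells, 1215805 in mural cells and 2102794 in myeloid cells. No cell had a profile identical to that of another cell.

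The kinds were compared with markers that had not been used to form them. All 8 matrix fibroblast markers reached 10 FPKM in at least 50% of matrix cells, 7 of 8 mural markers did so in mural cells and all 10 myeloid markers did so in myeloid cells. Of the 4 smooth muscle markers, none did so in mural cells. However, 19 of the 57 mural cells and 4 of the 26 myeloid cells also held at least 1000 FPKM of Col1a1. The part of these cells in the results below was not tested, apart from a fit without the 4 myeloid cells. The summed fibroblast markers averaged between 4051 and 13239 FPKM over the captures in mural cells and between 68.8 and 10967 FPKM in myeloid cells. In mural cells 4 of the 8 fibroblast markers reached 10 FPKM in at least 50% of cells, and in myeloid cells 1 did. The summed myeloid markers averaged 6.50 to 75.5 FPKM in matrix cells and 1.86 to 53.5 FPKM in mural cells. All 4 keratinocyte markers averaged below 1 FPKM in every kind. Summed Schwann markers, however, averaged up to 46.5 FPKM in matrix captures and up to 93.1 FPKM in mural captures. Summed endothelial markers reached 39.2 FPKM in mural captures and summed neutrophil markers 54.8 FPKM in myeloid captures. In the cells of no kind, the Schwann sum averaged 97.8 to 1348 FPKM. No Schwann, endothelial, neutrophil or T cell marker reached 10 FPKM in at least 50% of cells of any kind.

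Among the members, 8 of 10 had a promoter in the RefSeq table used here (build GRCm38.p6), which runs from 250 bases before to 50 bases after the start site. The promoters of Itga1, Itga11 and Itgam are shown because these genes were led by mural, matrix and myeloid cells, respectively, a choice made after their values were seen. Itga1 lies on chromosome 13 (114953096 to 115101964, minus strand), Itga11 on chromosome 9 (62677826 to 62783982, plus strand) and Itgam on chromosome 7 (128062640 to 128118491, plus strand). Their promoter windows were chr13:115101915-115102214, chr9:62677605-62677904 and chr7:128062390-128062689. Each is written 5′ to 3′ along the strand of its gene, and capitals mark a match to one of the motifs searched.
Itga1: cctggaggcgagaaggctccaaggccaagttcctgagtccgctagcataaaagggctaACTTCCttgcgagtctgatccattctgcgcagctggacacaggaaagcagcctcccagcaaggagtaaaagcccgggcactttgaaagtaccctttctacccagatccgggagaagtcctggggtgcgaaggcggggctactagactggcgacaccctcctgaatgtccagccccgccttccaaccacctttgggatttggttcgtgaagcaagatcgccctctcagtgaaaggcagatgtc
Itga11: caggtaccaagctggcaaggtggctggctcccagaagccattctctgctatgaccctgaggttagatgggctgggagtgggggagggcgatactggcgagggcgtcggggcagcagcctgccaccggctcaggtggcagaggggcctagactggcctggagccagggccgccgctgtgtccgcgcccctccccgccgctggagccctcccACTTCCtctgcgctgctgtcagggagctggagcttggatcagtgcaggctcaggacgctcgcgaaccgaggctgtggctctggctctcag
Itgam: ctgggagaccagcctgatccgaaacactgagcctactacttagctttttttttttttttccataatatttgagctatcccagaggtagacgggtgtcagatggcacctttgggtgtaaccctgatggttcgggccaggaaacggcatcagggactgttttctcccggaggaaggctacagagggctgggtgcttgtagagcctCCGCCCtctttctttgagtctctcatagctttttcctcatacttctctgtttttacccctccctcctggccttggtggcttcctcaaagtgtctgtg

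Motifs were searched on both strands, namely GGAAGT of ETS factors, TGANTCA of AP-1, GGGCGG of Sp1, the letters TATAAA, and the CArG box of serum response factor. The ETS letters were found once in the Itga1 window, once in that of Itga11 and 2 times in that of Itgav, and 23.8% of all 32851 promoters of the table held them. The Sp1 letters were found in the windows of Itgam, Itga5, Itgav, Itgb1 and Itgb5, against 35.7% of all promoters. None of the 8 windows held the AP-1 letters, TATAAA or a CArG box, which were present in 7.81%, 13.6% and 1.63% of all promoters. Matches describe letters in these windows and not factor binding.

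By their means over captures, the subunits fell into broad and restricted ones, although only Itga7 passed the test between mural and matrix cells. Itgav and Itgb1 were high in all 3 kinds and Itgb5 was high in matrix and mural cells, whereas Itga7 and Itga1 were mostly mural, Itga11 and Itga5 were highest in matrix cells, and Itgam and Itgb2 were almost limited to myeloid cells. The contrasts were tested on log2(mean FPKM + 1) of each capture and kind, with limma over all 14022 genes and the capture as a block. Captures entered with at least 3 cells of a kind, which left 7 captures for matrix, 5 for mural and 4 for myeloid cells.

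**Figure D1:**
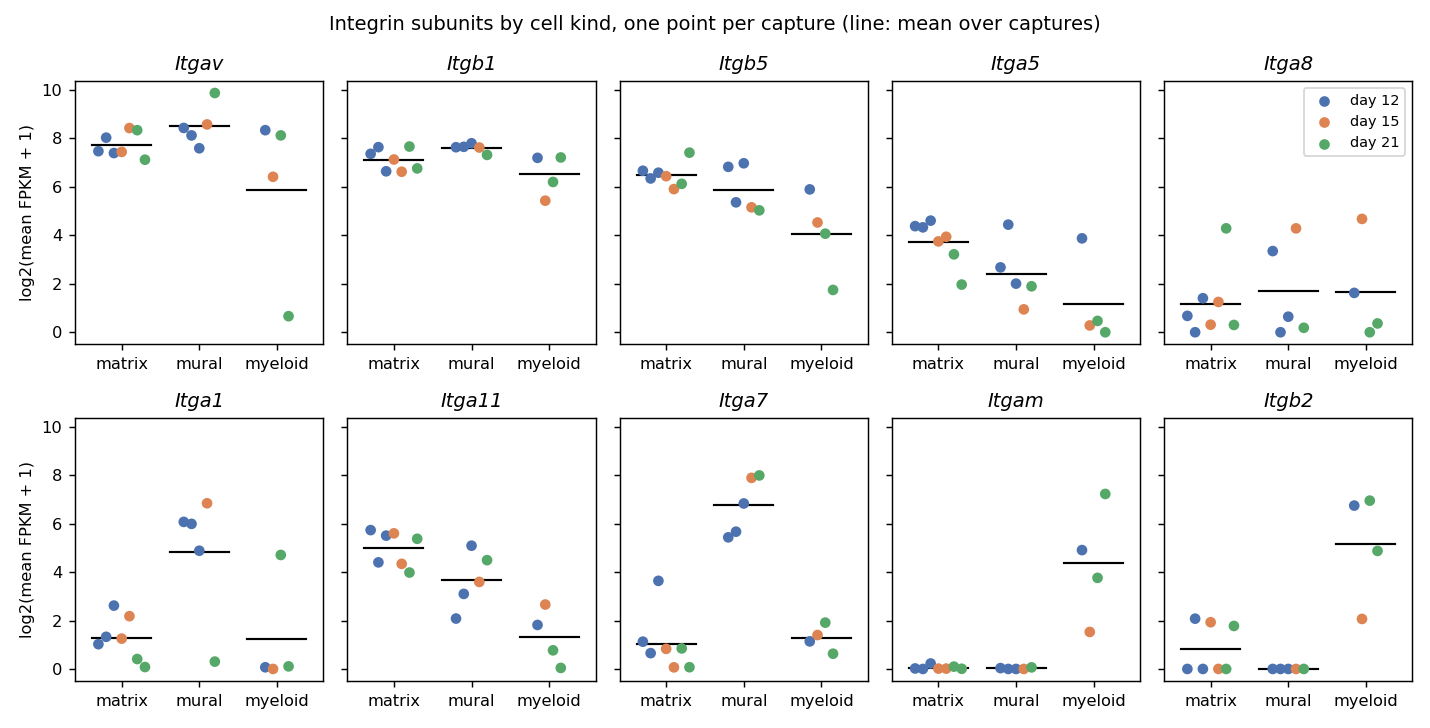
Level of each subunit on the log2(mean FPKM + 1) scale (vertical axis) in matrix, mural and myeloid cells, with 1 point per capture coloured by day and a line at the mean over captures. Itga7 points of mural cells lie above all matrix and myeloid points, and Itgb2 is at 0 in all 5 mural captures.

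Between mural and matrix cells, 1 of the 10 members passed the test, Itga7, which was higher in mural cells. Of all 14022 genes, 1.05% were called in this contrast, 0.713% as higher and 0.335% as lower in mural cells. The median difference of the members was 0.14 on the log2 scale, and that of all genes was -0.25. The latter was -0.46 with a pseudocount of 0.1, -0.055 with a pseudocount of 10 and -0.0014 with the mean of log2 values.

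Itga7, the laminin-binding alpha subunit of muscle and mural cells, gave mural means of 42.2, 49.8 and 113 FPKM in the day 12 captures, 236 FPKM in capture 1 of day 15 and 253 FPKM in capture 1 of day 21. In matrix cells the same gene ranged from 0.0464 to 11.4 FPKM, with a median of 0.777 over the 7 captures. Every mural capture lay above every matrix capture. The difference was 5.4 ± 0.70 (SE) on the log2 scale (limma, adjusted p = 0.00119), and mural cells were higher in all 5 captures that held both kinds. The exact sign-flip permutation test over these 5 pairs gave p = 0.0625, the smallest it can give. At 10 FPKM or more, Itga7 was found in 29 of 57 mural cells (50.9%, exact 95% interval 37.3 to 64.4) and in 4 of 198 matrix cells (2.02%, 0.553 to 5.09). It was not found at that level in any of 26 myeloid cells (exact 95% interval 0 to 13.2). Intervals of this kind cover counting error over cells only.

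Both later mural captures lay above the 3 day 12 captures for Itga7. In capture 1 of day 21, however, 1 of 8 cells held 78.2% of the sum, and without it the mean was 63 FPKM, within the range of day 12. Both later captures above all of day 12 were seen in 8.16% of 12704 genes, and change with day was not tested in mural cells.

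Itga1, a collagen receptor subunit, gave 66.3, 62.5 and 28.5 FPKM in the mural cells of the day 12 captures, 114 FPKM in capture 1 of day 15, but only 0.234 FPKM in the 8 mural cells of capture 1 of day 21. In matrix cells it ranged from 0.0562 to 5.13 FPKM. The first 4 mural captures lay above all 7 matrix captures and the day 21 capture lay within their range. With all captures, the difference of 3.15 ± 1.17 (SE) did not pass (limma, adjusted p = 0.266), and mural cells were higher in 4 of 5 captures. Without capture 1 of day 21 it was 4.42 (limma, adjusted p = 0.0271). At 10 FPKM or more, Itga1 was found in 27 of 57 mural cells (47.4%, 34 to 61) and 10 of 198 matrix cells (5.05%, 2.45 to 9.09). Weighting captures by their number of cells also led to a call for Itga1, with a difference of 3.79 (limma, adjusted p = 0.0174). So did the mean of log2 values and leaving out the cell filter (limma, adjusted p = 0.0130 and 0.0138). The other fits without 1 capture did not call it (limma, adjusted p from 0.233 to 0.567). Nor did a fit of these 2 kinds alone, TPM, or strict and loose gates (limma, adjusted p = 0.0876, 0.285, 0.206 and 0.324).

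Mural cells with Itga1 often held Itga7 as well. Of the 57 mural cells, 20 held both at 10 FPKM or more, 7 held Itga1 alone, 9 held Itga7 alone and 21 held neither. All 27 cells with Itga1 and all 29 with Itga7 also held Itgb1, the beta partner of both, as did 55 of all 57 mural cells. No matrix or myeloid cell held Itga1 and Itga7 together, but there the genes were too rare for an overlap to be looked for. Itga1 was found in 10 and Itga7 in 4 of 198 matrix cells, and Itga7 in 0 of 26 myeloid cells.

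**Figure D2:**
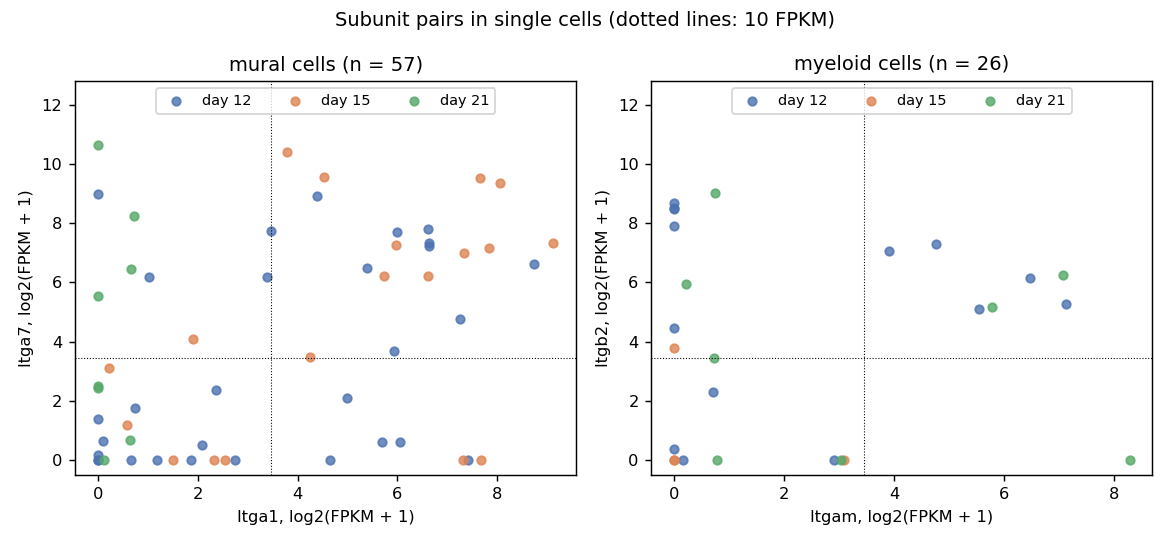
Subunit pairs in single cells, with Itga1 against Itga7 in 57 mural cells on the left and Itgam against Itgb2 in 26 myeloid cells on the right, both axes as log2(FPKM + 1), points coloured by day and dotted lines at 10 FPKM. The upper right field holds 20 mural cells and 7 myeloid cells, and the 8 mural cells of day 21 lie at the left edge for Itga1.

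Itga11, the other collagen-binding alpha subunit of the list, is known from fibroblasts. In matrix cells it gave 52.2, 20.1 and 44.4 FPKM at day 12, 47.4 and 19.2 FPKM at day 15, and 14.8 and 40.5 FPKM at day 21. Mural captures ranged from 3.23 to 33.1 FPKM and myeloid captures from 0.03 to 5.32 FPKM. The matrix and mural ranges overlapped, whereas every matrix capture lay above every myeloid capture. Against mural cells the difference was -1.39 ± 0.76 (SE), which did not pass (limma, adjusted p = 0.503). With the mean of log2 values it was -1.88 and passed (limma, adjusted p = 0.0123). In the mural capture with the highest level, capture 3 of day 12, a single cell at 372 FPKM held 80.4% of the sum, and without it the mean was 6.99 FPKM. Itga11 reached 10 FPKM in 101 of 198 matrix cells (51%, 43.8 to 58.2), 12 of 57 mural cells (21.1%, 11.4 to 33.9) and 3 of 26 myeloid cells (11.5%, 2.45 to 30.2).

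The order of the 2 collagen receptor subunits was clear in matrix cells and not in mural cells. In matrix cells, Itga11 exceeded Itga1 in all 7 captures, by 3.72 ± 1.11 (SD, n = 7) on the log2 scale, whereas in mural cells Itga1 exceeded Itga11 in 3 of 5 captures, by 1.15 ± 3.39 (SD, n = 5), a spread that spans 0. At 10 FPKM or more, 5 of 198 matrix cells held both, 5 held Itga1 alone and 96 held Itga11 alone. Of 57 mural cells, 5 held both, 22 held Itga1 alone and 7 held Itga11 alone. Itga11 was thus about as frequent in matrix cells with Itga1 (5 of 10) as in all matrix cells (101 of 198). The same held in mural cells (5 of 27 beside 12 of 57).

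Itga5, whose dimer with Itgb1 is the classical fibronectin receptor, was lower than Itga11 in the matrix cells of all 7 captures. Its means were 19.8, 19.1 and 23.4 FPKM at day 12, 12.5 and 14.4 FPKM at day 15, and 8.30 and 2.91 FPKM at day 21. Both day 21 captures lay below all others. A mean over cells does not tell fewer expressing cells from a lower level per cell. In mural cells Itga5 ranged from 0.925 to 20.8 FPKM, and the difference from matrix cells was -1.74 ± 0.66 (SE), which did not pass (limma, adjusted p = 0.284), but did with captures weighted by cell number (-1.96, limma, adjusted p = 0.0482). It reached 10 FPKM in 45 of 198 matrix cells (22.7%, 17.1 to 29.2) and in 7 of 57 mural cells (12.3%, 5.08 to 23.7).

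Itgav, the alpha subunit of several RGD receptors, had the highest mean of the list in matrix and mural cells. It ranged from 138 to 344 FPKM over the 7 matrix captures, with a median of 177, and from 192 to 940 FPKM over the 5 mural captures, with a median of 345. The highest mural value came from capture 1 of day 21, where a single cell at 6363 FPKM held 84.6% of the sum, and without that cell the mean was 166 FPKM. Mural cells were higher in all 5 captures, by 0.092 to 1.53 on the log2 scale. The fitted difference of 0.32 ± 0.76 (SE) did not pass (limma, adjusted p = 0.925). This fit also holds the myeloid means, so its difference is not the mean of those within captures. With the mean of log2 values in place of the log2 of the mean it was -0.16, of opposite sign.

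Itgb1, the partner of most alpha subunits listed, varied little between captures. Its 5 mural captures lay between 159 and 222 FPKM and its 7 matrix captures between 97.9 and 202 FPKM, a difference of 0.36 ± 0.45 (SE) on the log2 scale that did not pass (limma, adjusted p = 0.849). It reached 10 FPKM in 181 of 198 matrix cells (91.4%, 86.6 to 94.9), 55 of 57 mural cells (96.5%, 87.9 to 99.6) and 17 of 26 myeloid cells (65.4%, 44.3 to 82.8).

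Itgb5 pairs with Itgav as a vitronectin receptor. It ranged from 59.2 to 170 FPKM in matrix cells and from 31.7 to 125 FPKM in mural cells, and the groups overlapped (difference -0.83 ± 0.72 (SE), limma, adjusted p = 0.725). At 10 FPKM or more both Itgav and Itgb5 were found in 124 of 198 matrix cells (62.6%, 55.5 to 69.4), 23 of 57 mural cells (40.4%, 27.6 to 54.2) and 10 of 26 myeloid cells (38.5%, 20.2 to 59.4).

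Itga8, an RGD-binding partner of Itgb1 known from mesangial and smooth muscle cells, was rare in all kinds. It reached 10 FPKM in 5 of 198 matrix, 2 of 57 mural and 2 of 26 myeloid cells. Its capture means reached 18.6 FPKM in matrix, 18.6 FPKM in mural and 24.6 FPKM in myeloid cells, and in each of these captures 1 cell held at least 82.1% of the sum. Differences between kinds are therefore not given for this gene.

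**Figure D3:**
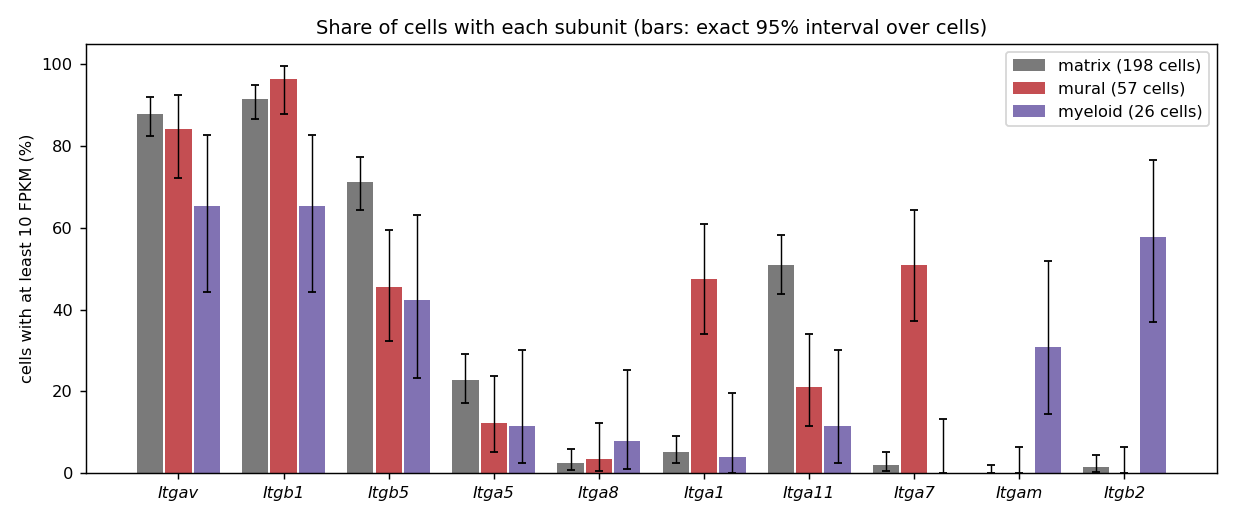
Share of cells with at least 10 FPKM (vertical axis, percent) for each subunit in 198 matrix, 57 mural and 26 myeloid cells, with exact 95% intervals over cells. Itgav and Itgb1 exceed 65% in all kinds, Itga1 and Itga7 stand out in mural cells, and Itgam and Itgb2 stand out in myeloid cells.

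Between myeloid and matrix cells, 4 of the 10 members passed. Itgam and Itgb2 were higher in myeloid cells, and Itga11 and Itga5 were lower. Of all genes, 15.7% were called, 3.05% as higher and 12.6% as lower. The members' median difference was 0.05, and that of all genes was -0.85 on the log2 scale. Scaling each cell to TPM, a constant total per cell, moved the median of all genes to -1.05. It was -1.69 with a pseudocount of 0.1, -0.48 with the mean of log2 values and -0.21 with a pseudocount of 10. In these settings genes were on the whole lower in myeloid cells, by an amount that depended on the scale.

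Itgb2, the beta subunit shared by the leukocyte integrins, gave myeloid means of 106 FPKM in capture 2 of day 12, 3.18 FPKM in capture 2 of day 15, and 123 and 28.3 FPKM in captures 1 and 2 of day 21. In matrix cells it was listed at 0 in 4 of 7 captures and reached 3.22 FPKM at most, and it was listed at 0 in all 57 mural cells. The lowest myeloid capture, capture 2 of day 15, lay just below the highest matrix capture. The difference from matrix cells was 4.39 ± 0.80 (SE) on the log2 scale (limma, adjusted p = 0.00344). Against mural cells Itgb2 also passed (limma, adjusted p = 0.00267), and no fold is given against a group listed at 0. Of 26 myeloid cells 15 held Itgb2 at 10 FPKM or more (57.7%, 36.9 to 76.6), against 3 of 198 matrix cells (1.52%, 0.314 to 4.36).

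Itgam, which encodes the CD11b antigen, gave myeloid means of 29 FPKM in capture 2 of day 12, 1.88 FPKM in capture 2 of day 15, and 12.6 and 149 FPKM at day 21. Matrix captures did not exceed 0.169 FPKM and mural captures 0.0463 FPKM, so that every myeloid capture lay above every other capture. The difference was 4.31 ± 0.77 (SE) against matrix cells (limma, adjusted p = 0.00304) and 4.35 ± 0.89 (SE) against mural cells (limma, adjusted p = 0.0101). The latter rests on few captures, since it did not pass without capture 2 of day 12 (limma, adjusted p = 0.0787). It did not pass in a fit of these 2 kinds alone either (limma, adjusted p = 0.225), and stayed called in 17 of 21 alternatives. At 10 FPKM or more, Itgam was found in 8 of 26 myeloid cells (30.8%, 14.3 to 51.8) and in 0 of 198 matrix cells (0 to 1.85).

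Within myeloid cells, 7 of 26 held both subunits of Mac-1 at 10 FPKM or more, 1 held Itgam alone, 8 held Itgb2 alone and 10 held neither. Capture 2 of day 15 was lowest for both genes, and 2 of its 4 myeloid cells also held Col1a1 above 1000 FPKM. When the 4 myeloid cells with Col1a1 were left out, a fit added after the data were seen, Itgam and Itgb2 still passed against both other kinds. Capture means of such few cells were led by single cells: at day 21, 1 cell of 5 held 86.2% of the Itgam sum and 84.5% of the Itgb2 sum in capture 1.

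Itga11 was lower in myeloid than in matrix cells by 3.44 ± 0.84 (SE) on the log2 scale (difference -3.44, limma, adjusted p = 0.0153), in 4 of 4 captures. Without capture 1 or capture 2 of day 21 the call was lost (limma, adjusted p = 0.0530 and 0.0640). Itga5 showed a difference of -2.44 ± 0.73 (SE) (limma, adjusted p = 0.0366) in the same 4 captures. Its myeloid means were 13.7 FPKM in capture 2 of day 12 and at most 0.384 FPKM in the other 3 captures, and the call was lost in 6 of the 7 fits that each left out 1 capture, with adjusted p of up to 0.125. The sign-flip permutation test over 4 pairs cannot go below 0.125, which it gave for all 4 called members.

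Of the subunits not called between myeloid and matrix cells, Itgav gave 324, 84.5, 279 and 0.583 FPKM in the 4 myeloid captures, the last being the 3 myeloid cells of capture 2 of day 21. Its difference from matrix cells was -1.93 ± 0.83 (SE) (limma, adjusted p = 0.131), and with at least 5 cells per capture, which left out the myeloid cells of that capture and of capture 2 of day 15, it was 0.032, of opposite sign. Itgb5 was lower in all 4 captures by the means, at -2.17 ± 0.80 (SE), but did not pass (limma, adjusted p = 0.081). It passed under 4 alternatives, with the mean of log2 values, TPM, no block, or no myeloid cells with Col1a1 (limma, adjusted p from 0.0126 to 0.0469). Itgb1 ranged from 42.2 to 148 FPKM and differed by -0.55 ± 0.50 (SE) (limma, adjusted p = 0.467). Itga7 stayed at 0.547 to 2.76 FPKM. Itga1 was listed below 0.1 FPKM in 3 captures, and 1 cell held the whole of its 25.1 FPKM in capture 1 of day 21.

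Between myeloid and mural cells, 3 of the 10 members passed, Itgb2 and Itgam as higher in myeloid cells and Itga7 as lower, against 6.55% of all genes in either direction, 2.12% as higher and 4.43% as lower. The difference of Itga7 was -4.75 ± 0.90 (SE) (limma, adjusted p = 0.00631), and its myeloid and mural captures did not overlap. It did not pass without capture 1 of day 21 (limma, adjusted p = 0.0565). Differences of -2.25 ± 0.97 (SE) for Itgav and -0.91 ± 0.58 (SE) for Itgb1 did not pass (limma, adjusted p = 0.197 and 0.390). Only 2 captures held at least 3 cells of both kinds.

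**Figure D4:**
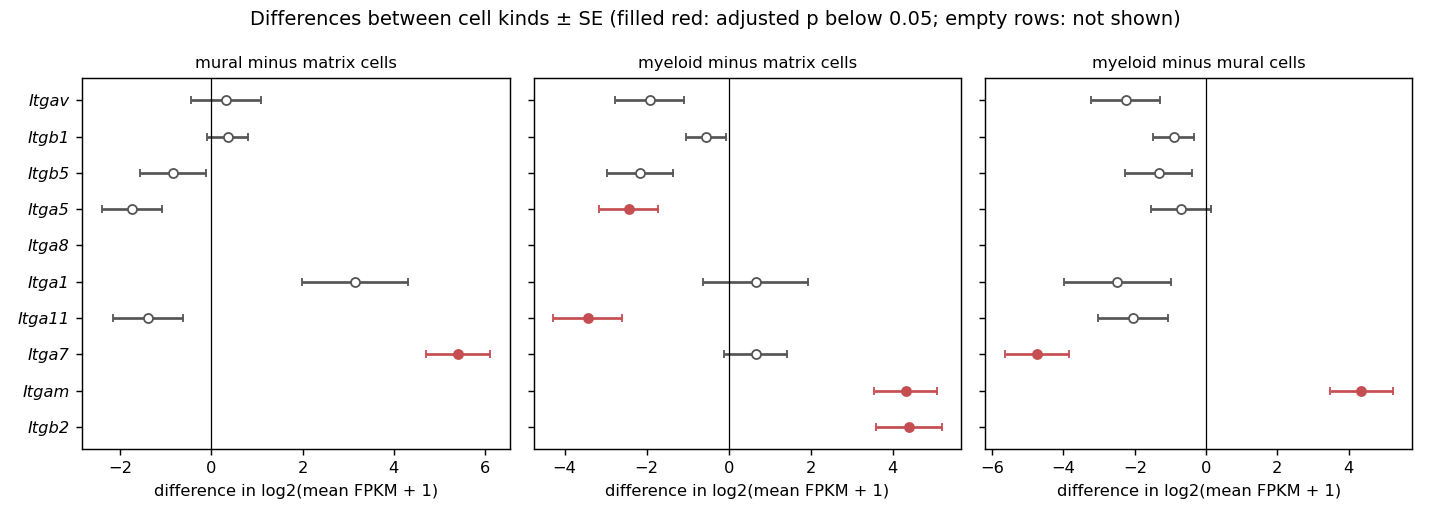
Difference in log2(mean FPKM + 1) (horizontal axis) with its SE for each pair of kinds from limma, filled red where the adjusted p was below 0.05. Rows are empty for Itga8, for Itgam and Itgb2 between mural and matrix cells and for Itgb2 between myeloid and mural cells. Itga7 is the single filled point between mural and matrix cells, and Itgam lies to the right in both myeloid contrasts.

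Ordered by mean level over captures, matrix cells ran from Itgav (7.75 ± 0.51 on the log2 scale, SD, n = 7) over Itgb1 (7.12 ± 0.45), Itgb5 (6.50 ± 0.48), Itga11 (4.99 ± 0.72) and Itga5 (3.74 ± 0.91) to Itga1 (1.27 ± 0.90). Each of these exceeded the next in all 7 captures, except Itgb1 over Itgb5, which held in 6 and by less than its spread (0.62 ± 0.74). Itga1, Itga8, Itga7 and Itgb2, between 1.27 and 0.83, did not differ beyond their spread. Mural cells ran from Itgav (8.52 ± 0.85, SD, n = 5) over Itgb1 (7.61 ± 0.18) and Itga7 (6.76 ± 1.2) to Itgb5 (5.87 ± 0.95) and Itga1 (4.82 ± 2.62), and no neighbours among them differed in the same direction in all 5 captures. In myeloid cells Itgb1 (6.51 ± 0.86, SD, n = 4), Itgav (5.89 ± 3.59), Itgb2 (5.16 ± 2.26), Itgam (4.36 ± 2.37) and Itgb5 (4.06 ± 1.73) could not be ordered beyond their spread. The median cell held 3 members at 10 FPKM or more in matrix cells, 4 in mural cells and 3 in myeloid cells.

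The question of change with time after wounding could be asked in matrix cells, which every capture held. No member passed in any pair of days, and 9 of 10 were tested over 13552 genes, Itgam falling below 1 FPKM. Of all genes, 0% were called between days 12 and 15, 0.00738% (1 gene) between days 12 and 21 and 0% between days 15 and 21. At an unadjusted p under 0.05 there were 791, 968 and 745 genes, among them 1 member.

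That member was Itga5 between days 12 and 21, with a difference of -1.85 ± 0.68 (SE) on the log2 scale (p = 0.0211 before and 0.619 after adjustment, limma). Day 15 lay between, at -0.59 ± 0.68 from day 12 (limma, adjusted p = 0.918), and day 21 lay -1.25 ± 0.75 from day 15 (limma, adjusted p = 0.887). Both day 21 captures below all 5 earlier ones was a pattern seen in 6.21% of genes and in 2 of the 9 members tested, Itga5 and Itga1. Cells with at least 10 FPKM of Itga5 made up 22.6%, 46.2% and 23.5% of matrix cells in the day 12 captures, 24% and 22.7% at day 15, and 16.7% and 5.88% at day 21. Of these shares, the highest was that of capture 2 of day 12 and the lowest that of capture 2 of day 21. In capture 3 of day 12, 1 cell held 77.8% of the Itga5 sum, and without it the mean was 5.51 FPKM. In captures 1 and 2 of day 21, 1 cell held 59.4% and 71.3%, and without it the means were 3.56 and 0.862 FPKM. The other captures, each without its highest cell, were at 13.1 and 14.9 FPKM at day 12 and at 8.78 and 6.62 FPKM at day 15.

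For the other 8 members tested, differences lay between -1.36 (Itga7) and 0.30 (Itgav) from day 12 to day 15, between -1.41 (Itga1) and 1.60 (Itga8) from day 12 to day 21, and between -1.47 (Itga1) and 1.51 (Itga8) from day 15 to day 21. Itgav, Itgb1 and Itgb5 had as much spread between captures of a day as between days. Itgav, for example, gave 324 and 138 FPKM in the 2 captures of day 21.

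**Figure D5:**
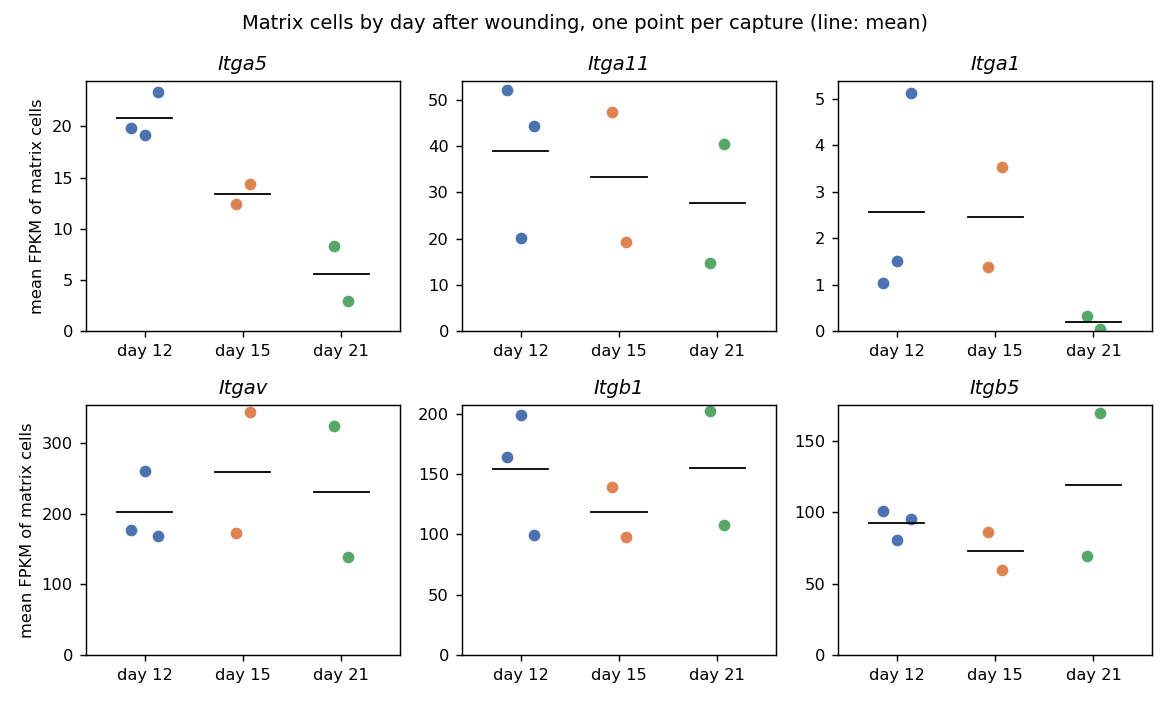
Mean FPKM of matrix cells (vertical axis, from 0) for 6 subunits at days 12, 15 and 21, with 1 point per capture and a line at the mean of the day. Itga5 is at 19.1 to 23.4 FPKM at day 12 and at 2.91 and 8.30 FPKM at day 21, and the other panels overlap between days 12 and 21 except Itga1, whose levels are at most 5.13 FPKM.

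Ligands of integrins, 24 genes of which 22 were tested, were in part divided along the same kinds. In mural cells 3 were higher than in matrix cells and none was lower, where 0.713% and 0.335% of all genes were called. They were Vtn, which encodes vitronectin (6.79 ± 0.81, SE, limma, adjusted p = 0.000669), and the basement membrane collagens Col4a1 (3.57 ± 0.65, adjusted p = 0.0177) and Col4a2 (3.30 ± 0.74, adjusted p = 0.0496). The median of the list was -0.46, beside -0.25 for all genes. Myeloid cells had 13 ligands lower than matrix cells and none higher, where 12.6% and 3.05% of all genes were called, with a median of -3.15 beside -0.85 for all genes. The largest were Mfge8 (-5.33 ± 0.85, SE), an RGD protein that bridges to dying cells, Col3a1 (-4.38 ± 0.78), Tnc (-4.28 ± 0.78) and Fn1 (-4.25 ± 0.69). Against mural cells 8 ligands were lower in myeloid cells and none higher, where 4.43% and 2.12% of all genes were called (median -2.80 beside -0.58). They were led by Vtn (-6.83 ± 1.04), Mfge8 (-5.83 ± 0.99), Lamc1 (-4.95 ± 0.89) and Col4a1 (-4.93 ± 0.84).

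Cytoplasmic partners of integrins, a list of 23 adaptors with 22 tested, had no member called between mural and matrix cells (median 0.48 beside -0.25). Of all genes, only 1.05% were called in that contrast. Between myeloid and matrix cells 2 were higher and 3 lower, where 3.05% and 12.6% of all genes were called, so that the share of lower adaptors was close to that of all genes (median -0.15 beside -0.85). The higher ones were Fermt3, the kindlin of blood cells (5.78 ± 0.62, SE), and Parvg, the parvin of blood cells (2.99 ± 0.86). The lower ones were Fermt2, the widely expressed kindlin (-3.34 ± 0.75), the focal adhesion kinase gene Ptk2 (-3.23 ± 0.69) and the integrin-linked kinase gene Ilk (-3.07 ± 0.87). Between myeloid and mural cells 2 were higher and 3 lower, where 2.12% and 4.43% of all genes were called (median -1.31 beside -0.58). Fermt3 (5.74 ± 0.72) and Zyx (3.10 ± 0.76) were higher, while Ptk2 (-4.73 ± 0.80), Fermt2 (-4.27 ± 0.88) and Vcl (-3.42 ± 0.94) were lower. Parvg and Zyx were each the smallest of the 5 changes called and were named after their values were seen.

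Of 6 genes of the TGF-beta latency system, on which Itgav dimers are known to act, none was called between mural and matrix cells or between myeloid and mural cells. Of all genes, 1.05% and 6.55% were called in these contrasts. The list medians were -0.47 and -1.23, beside -0.25 and -0.58 for all genes. Tgfb2 alone was lower in myeloid than in matrix cells (-3.54 ± 1.04, SE, limma, adjusted p = 0.0343), where 12.6% of all genes were called as lower. The list median was -2.24 there, beside -0.85 for all genes. No gene of the ligand, adaptor or latency lists passed in a pair of days. The closest was Tnc between days 12 and 21 (-2.94 ± 0.45, SE, limma, adjusted p = 0.0971).

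The genome holds further integrin subunits, of which 16 were counted. Only 7 passed the limit on low values and none of these was called in a contrast of kinds, where 1.05%, 15.7% and 6.55% of all genes were called. The list medians were 0.05, 0.15 and -0.55, beside -0.25, -0.85 and -0.58 for all genes. Over the cells of a kind, 5 exceeded a mean of 5 FPKM somewhere. Itga4, the fibronectin and Vcam1 receptor subunit, averaged 10.3 FPKM in matrix, 9.0 in mural and 13.3 in myeloid cells. Itga6, a laminin receptor subunit, averaged 16.3, 27.7 and 26.6 FPKM in the same order. Itga9 averaged 3.02, 12.7 and 12.0 FPKM, and 9 of 198 matrix, 1 of 57 mural and 3 of 26 myeloid cells reached 10 FPKM. Itga10 averaged 6.63 FPKM in mural cells, with 5 of 57 at 10 FPKM or more, and 0.456 and 0.0969 FPKM in matrix and myeloid cells. Itgal averaged 5.38 FPKM in mural cells through 1 cell. Itga2, Itga3, Itgad, Itgae, Itgax, Itgb6 and Itgb7 reached 10 FPKM in no matrix, mural or myeloid cell.

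As a description of which genes moved most like each member over the 16 capture-by-kind means, which share captures and kinds, the 3 genes with the highest Pearson correlation were taken out of 14022. For Itga7 they were Ano1 (r = 0.958), Pcp4l1 (0.953) and Rgs16 (0.948), and for Itga1 Il34 (0.911), Pde9a (0.868) and Recql (0.862). For Itgam they were Gpr65 (0.992), Lyl1 (0.974) and Cd4 (0.972), and for Itgb2 Plbd1 (0.956), Slco2b1 (0.937) and Tm6sf1 (0.932). For Itga11 they were Mrps28 (0.944), Auts2 (0.934) and Ccn4 (0.926), and for Itga5 1700047I17Rik2 (0.921), Alcam (0.889) and Zfc3h1 (0.888). For the broad subunits they were 1810026B05Rik (0.945), Mrpl14 (0.939) and Ctnnb1 (0.914) with Itgav, Sod2 (0.908), Cks2 (0.884) and Capg (0.868) with Itgb1, and Mxra8 (0.914), Atxn1 (0.900) and Tmem205 (0.900) with Itgb5. Itga8, led by single cells, had Mapt (0.833), Rps27a-ps2 (0.817) and Gm37124 (0.807).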

How the data were processed

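The authors aligned paired-end reads with Bowtie 1.0.0 to mm10 and quantified genes of GENCODE mouse release 13 with RSEM, and the deposited values are FPKM, one column per cell. Identifiers were named through GENCODE release 21 (50376 of 50600). The files hold no counts, so depth per cell was derived from the spacing of FPKM values in genes with 1 transcript, assuming fragments of 300 bases, and the estimator was tested on simulated data. Cells were kept at the study's minimum of aligned fragments or above, with at most 11000 genes and 15% of FPKM on mitochondrial genes. Median estimates ran from 960061 to 2366136 fragments per capture. At the median depths of the 3 kinds, 1 fragment on a transcript of 3000 bases is worth 0.176 to 0.305 FPKM. No doublet caller was run.

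Mean FPKM per capture and kind with at least 3 cells entered limma 3.58.1 (R 4.3.3) with a variance trend as log2(mean + 1), which understates differences of low genes, for genes whose mean reached 1 FPKM. P-values are two-sided and adjusted by Benjamini and Hochberg over all genes, with a threshold of 0.05. Kinds were compared in a single fit of all 3 kinds with the capture as a block, days without a block. Kinds rest on 3 genes of the same cells that were then compared. Shares of cells are given at 10 FPKM. Exact intervals are Clopper-Pearson at 95%. Named genes are the members, other subunits called or above a mean of 5 FPKM, at most 4 called genes per list, and the 3 genes most like each member. The 10 members and the lists were chosen with earlier results of these data known. Alternatives were the cell filter, gates, pseudocount, filter on low values, averaging, scaling, trend, weights, cell minimum, block, fits of 2 kinds and each capture left out.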

Additional observations from a re-analysis of the deposited data

Results flagged for a closer look

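Of 29 tests for a capture far from the others, 1 per member and kind with at least 4 captures, 5 were positive, where chance gives about 1 in 20. On the log2(mean FPKM + 1) scale, Itga1 in myeloid cells stood at 4.71 in capture 1 of day 21, with the next capture at 0.11. Itga5 in myeloid cells stood at 3.88 in capture 2 of day 12, with the next at 0.47. In matrix cells Itga7 stood at 3.64 in capture 3 of day 12 (next 1.13), where 1 of 17 cells held 97.0% of the sum, Itga8 at 4.29 in capture 1 of day 21 (next 1.40), and Itgam at 0.23 in capture 3 of day 12 (next 0.10), with no cell at 10 FPKM.

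The 11 kept cells of no kind, which entered no comparison, held integrins as well. At 10 FPKM or more, Itgav was found in 10 of them, Itgb1 in 10, Itgb5 in 5, Itga1, Itga7 and Itga11 in 4 each, and Itga5 in 2.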

How the results depend on the processing

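Of the 8 called differences of members, none changed sign over 21 alternatives each, and Itga7 between mural and matrix cells, Itgb2 in both myeloid contrasts and Itgam between myeloid and matrix cells stayed called in all of them. The other 4 lost the call in 23 values, which leaves Itga5 (called in 9 of 21) the least stable. The exact sign-flip permutation test, which is not among the 21, cannot pass with 5, 4 or 2 pairs. Of 49 differences not called, 23 changed sign somewhere and 10 gained a call in 19 values. Itgav turned to -0.16 between mural and matrix cells with the mean of log2 values and to 0.032 between myeloid and matrix cells with at least 5 cells.

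Between mural and matrix cells 147 genes were called, and 82 with a pseudocount of 0.1, 39 without the filter on low values, 488 with the mean of log2 values, 881 with weights by cell number and 236 with these kinds alone. Between myeloid and matrix cells 2200 were called, and 1048 with a pseudocount of 10, 682 without the low filter, 829 with at least 5 cells and 861 with these kinds alone. Between myeloid and mural cells 918 were called, and 609 without the cell filter, 530 with a pseudocount of 10, 318 without the low filter, 1378 with the mean of log2 values, 308 with these kinds alone and, in the alternative added after seeing the data, 1488 without myeloid cells that also held Col1a1. Leaving out 1 capture at a time gave 47 to 154, 1287 to 1951 and 466 to 973 calls, with the lowest counts without capture 1 of day 15, 21 and 21, respectively. The cause was not tested.

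Between days 12 and 15, 0 genes were called, and 70 with the mean of log2 values and 1 with weights. Between days 12 and 21, 1 was called, and 2 with strict gates, 6 without the low filter, 89 with the mean of log2 values and 0 with a pseudocount of 0.1, with TPM or with weights. Between days 15 and 21, 0 were called, and 1 with a pseudocount of 10 and 1 without the low filter. Every fit without 1 capture called 0 genes between days, and Itgav between days 12 and 15 ranged from -0.19 to 0.79 over them.

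Without the capture as a block, 252, 3042 and 2031 genes were called between kinds. Captures of the same number did not deviate together across days (correlations from -0.007 to 0.025). With 2 captures at each later day, these correlations cannot decide whether the numbers pair them. The fit with a block on the capture number called 0 genes in each pair of days. TPM moved the median of all genes from -0.25 to -0.34, from -0.85 to -1.05 and from -0.58 to -0.69 in the contrasts of kinds. With the mean of log2 values these medians were -0.0014, -0.48 and -0.50. Of the 4 myeloid captures 3 held 3 to 5 cells, and read counts were not used here, both of which limit precision. With the mean of log2 values, Itgav and Itgb1 were also called as lower in myeloid cells in both contrasts (adjusted p from 0.00474 to 0.0238).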

Other observations

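Itgbl1, which resembles a beta subunit but forms no receptor of the family, was singled out after its values were seen. It averaged 180.1 FPKM in matrix cells, with 155 of 198 at 10 FPKM or more, 20.8 FPKM in mural cells (10 of 57) and 7.59 FPKM in myeloid cells (2 of 26). Its matrix captures ranged from 74.3 to 320.2 FPKM and its mural captures from 0 to 72.9 FPKM.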
